A study of Saccharomyces cerevisiae with 5 samples.

Results

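Divergent promoters, the stretches between 2 neighbouring genes that are transcribed away from each other, were examined in the nucleosome maps of 5 *Saccharomyces cerevisiae* strains. A divergent pair was taken from the systematic gene names, which count outward from the centromere and end in W or C for the strand. On a right arm a pair is a C gene followed by the next number's W gene, and on a left arm it is a W gene followed by the next number's C gene. Names with a suffix letter and genes of chromosomes II and X were left out. The rule gave 951 pairs, 391 on left and 560 on right arms, with 1902 genes of the 5264 host genes measured, or 43.3% of the 4397 genes it could have chosen. The tandem genes used for comparison, 1776 in number, follow a neighbour on the same strand.

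Each strain kept DNA of another yeast on an artificial chromosome (YAC) and gave 1 library of mononucleosomal DNA made with micrococcal nuclease, an enzyme that cuts the linkers between nucleosomes. Strains YAC6 and YAC7 carried *Debaryomyces hansenii* DNA, and strains YAC1, YAC2 and YAC3 carried *Kluyveromyces lactis* DNA. All 5 grew without tryptophan and uracil and with 2% dextrose. The libraries are different strains and no strain was repeated, so a p-value measures only the spread between these samples.

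In budding yeast, active promoters usually hold a nucleosome-depleted region just upstream of the start of transcription. The first nucleosome of the gene, called +1, borders it on the downstream side and is the best positioned of the gene. At divergent promoters, activators bound between the starts can serve both genes, and the region upstream of one gene soon runs into the body of the other.

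The depth in reads is unknown. Counted in steps, the smallest amount by which 2 values of a library differ, the mean signal per bin of 10 bp was 1479 steps in YAC6 and 726 in YAC7, against 1739 in YAC1, 559 in YAC2 and 396 in YAC3. All 1902 divergent genes passed the low-signal filter in every library. The signal of a gene was scaled to its own mean from +100 to +500 bp, so that 1 is the level of the gene body.

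The distance between the listed starts of a pair is not in the files. It was recovered from the profiles themselves, since both genes' profiles cover the same DNA: the C gene's profile was reversed and slid along the W gene's until they matched. A match was accepted for 818 of the 951 pairs (86.0%), with a median correlation of 0.998, and in 775 of them all 5 libraries gave distances within 2 bp of the joint one. The accepted limit of 0.9 also lets some unrelated profiles through, but 811 of the 818 pairs had a correlation of at least 0.99. A further 133 pairs had no accepted match between -300 and 800 bp. Of these, 55 had another annotated gene lying between them, against 35 of the accepted pairs. Where the listed starts come from is not given in the sources used here, so a distance is that between listed starts.

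Among accepted pairs, which could lie at most 800 bp apart, the starts were mostly close together. The median distance was 155 bp, with quartiles at 117 and 385.75 bp. From 75 to 175 bp there were 423 pairs (51.7%), or 105.75 per 25 bp, against 17.7 per 25 bp from 175 to 325 bp. Beyond that main group the distances gathered again: 28.5 pairs per 25 bp lay from 325 to 375 bp and 21 from 475 to 525 bp, while 14.25 lay from 375 to 475 bp and 13 from 525 to 675 bp. A smoothed curve of the distances peaked at 123, 346 and 509 bp. These bands were chosen after the distances were seen.

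**Figure D1:**
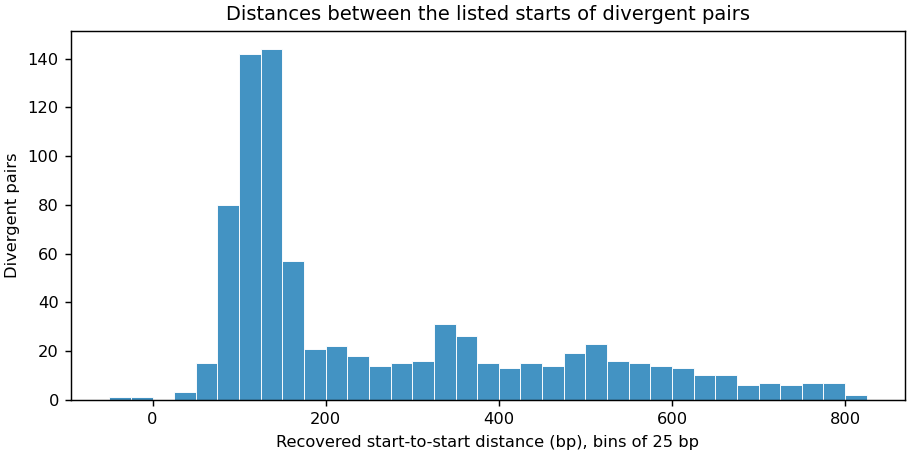
Number of divergent pairs (vertical axis) by recovered start-to-start distance in bins of 25 bp (horizontal axis), for the 818 pairs with an accepted distance. Most pairs lie in the peak from 75 to 175 bp, and smaller rises stand near 346 and 509 bp.

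The promoters of divergent genes were depleted as deeply as those of tandem genes at their lowest point, but the depleted region was narrower on the upstream side. The mean profile of divergent genes was lowest at 0.207 ± 0.059 of the gene-body level, against 0.208 ± 0.055 for tandem genes (SD, n = 5 libraries each). The +1 nucleosome of both mean profiles peaked at 80 bp in every library. Upstream, the first peak of the divergent profile lay at -200 bp with a height of 1.13 ± 0.05, and that of the tandem profile at -218 ± 4.47 bp with a height of 1.01 ± 0.06 (SD, n = 5).

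**Figure D2:**
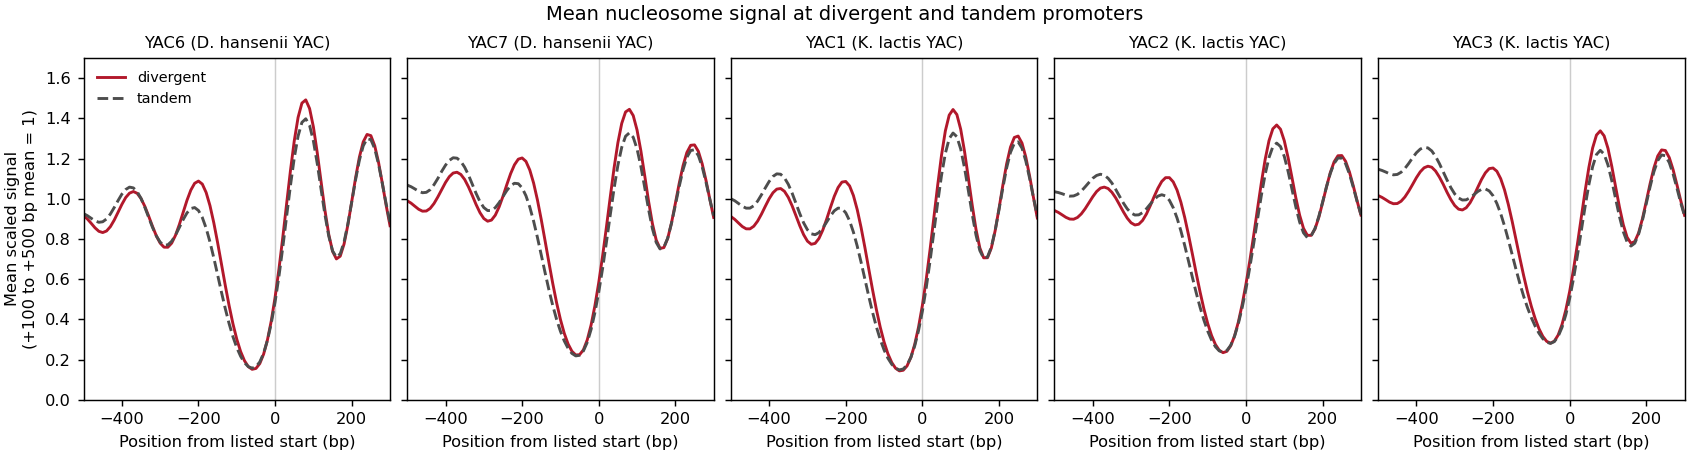
Mean scaled signal (vertical axis, gene body from +100 to +500 bp = 1) by position from the listed start in bp (horizontal axis) for divergent (solid red) and tandem (dashed grey) genes, 1 panel per library. In each of the 5 libraries the divergent profile has the higher peak near -200 bp.

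The depleted region of a gene was the run of bins below 0.5 around its lowest point between -250 and +50 bp. In divergent genes its median width was 140 bp in YAC6, 140 bp in YAC7, 155 bp in YAC1, 140 bp in YAC2 and 150 bp in YAC3. In tandem genes it was 160, 180, 180, 160 and 190 bp in the same order. The regions of divergent genes were narrower in 5 of 5 libraries, by 29.0 ± 10.2 bp (SD, n = 5; exact two-sided sign-flip test, p = 0.0625, 0.0833 after Benjamini-Hochberg adjustment over 4 measures). Its upstream edge had a median of -130 to -140 bp by library in divergent genes and -150 to -170 bp in tandem genes, and its downstream edge one of 0 to 10 bp in both. No p below 0.0625 is possible with 5 libraries, so no such difference could pass 0.05.

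The signal from -300 to -150 bp was higher upstream of divergent genes, at 0.861 ± 0.037 against 0.716 ± 0.055 upstream of tandem genes. The difference was 0.145 ± 0.025 and had the same sign in 5 of 5 libraries (exact sign-flip p = 0.0625, adjusted p = 0.0833). It depended on the distance within the pair. In pairs under 250 bp, where this window lies largely in the partner gene, the difference from tandem genes was 0.300 ± 0.043, and in pairs of 350 bp or more it was -0.015 ± 0.054 (SD, n = 5). This split was chosen with the data in view. The difference was also smaller with other settings, at 0.029 ± 0.006 with a window from -400 to -200 bp and 0.070 ± 0.013 as a mean over genes. Width did not follow the distance in 1 direction. Its median was 126 ± 8.94 bp in pairs under 150 bp, 196 ± 8.94 bp from 150 to under 250 bp, 191 ± 30.3 bp from 250 to under 350 bp, 155 ± 10 bp from 350 to under 500 bp and 177 ± 13 bp at 500 bp or more, beside 174 ± 13.4 bp in tandem genes (SD, n = 5). Only pairs under 150 bp and from 350 to under 500 bp had mean medians below that of tandem genes, and those from 150 to under 250 bp were wider than tandem genes in 5 of 5 libraries.

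The promoter ratio compares -120 to -20 bp with the gene body on a log2 scale, and lower values mean deeper depletion. Its median in divergent genes was -2.41 in YAC6, -1.95 in YAC7, -2.37 in YAC1, -1.84 in YAC2 and -1.78 in YAC3. In tandem genes it was -2.43, -2.07, -2.41, -1.89 and -1.94 in the same order. The ratio of divergent genes was higher by 0.08 ± 0.06 (SD, 5 of 5 libraries; exact sign-flip p = 0.0625, adjusted p = 0.0833). That is about as large as the difference between the W and C genes of the pairs themselves, which was -0.05 ± 0.05. The ratio was lowest in YAC6 and YAC1 for both sets of genes. These are the libraries with the finest steps, and the part of depth in the level was not tested. The difference was 0.18 ± 0.05 with a window from -150 to 0 bp and 0.04 ± 0.03 with a pseudocount of 0.5 times the gene mean. By distance, the median ratio was -2.03 ± 0.23 in pairs under 150 bp, -2.59 ± 0.35 from 150 to under 250 bp, -1.86 ± 0.37 from 250 to under 350 bp, -1.84 ± 0.38 from 350 to under 500 bp and -1.99 ± 0.32 at 500 bp or more, beside -2.15 ± 0.26 in tandem genes (SD, n = 5). Pairs from 150 to under 250 bp were thus the only distance class with a lower ratio than tandem genes, in 5 of 5 libraries. The +1 position of single genes had a median of 80 bp in divergent and 82 ± 4.47 bp in tandem genes, a difference of -2.00 ± 4.47 bp (exact sign-flip p = 1) on a grid of 10 bp. As a mean over genes it was -3.42 ± 1.06 bp, with the same sign in 5 of 5 libraries (exact sign-flip p = 0.0625, the smallest possible).

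Most of the 818 divergent pairs with an accepted distance shared 1 depleted region, and the share depended on distance. Pairs more than 800 bp apart could not be matched, so the share over all 951 pairs may differ. A pair was called shared when the same region of at least 40 bp held the lowest point of both starts' search windows. It was separate when each start had its own region, and single-sided when only 1 start had a region. A shared region need not reach both starts: at *CLN2*/*BBP1*, 601 bp apart, it measured 440 bp in YAC2. Shared pairs could also hold a nucleosome between the starts, as did 4.55% of them in YAC1, the lowest share, and 9.55% in YAC3, the highest. Over the 818 pairs the shared class held 74.4% in YAC6, 72.9% in YAC7, 75.3% in YAC1, 73.3% in YAC2 and 70.4% in YAC3. On average 73.3% ± 1.86 were shared, 22.7% ± 0.61 separate, 2.96% ± 1.34 single-sided and 1.10% ± 0.89 without a region (SD, n = 5). The class was the same in 5 of 5 libraries for 655 pairs (532 shared, 121 separate and 2 single-sided), or 80.1%. The other 163 pairs changed class with the library.

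The step between the classes fell near 300 bp. The windows of the 2 starts cover largely the same bins in close pairs and no longer overlap beyond 500 bp. A close pair could thus rarely be classed as separate, and the part of the windows in this step was not tested. Under 150 bp (386 pairs) 97.2% ± 2.08 were shared, and from 150 to under 250 bp (118 pairs) 98.8% ± 1.65. From 250 to under 350 bp (76 pairs) it was 75.5% ± 3.30, from 350 to under 500 bp (102 pairs) 32.4% ± 3.40, and at 500 bp or more (136 pairs) 12.6% ± 3.58 (SD, n = 5 libraries). The shortest pair that was separate in all 5 libraries measured 322 bp, and the longest that was shared in all 5 measured 582 bp. Pairs that changed class were 4.24% of those from 150 to under 250 bp and 44.1% of those from 350 to under 500 bp.

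Shared regions grew with the distance. Their median width was 132 bp under 150 bp, 198 bp from 150 to under 250 bp, 271 bp from 250 to under 350 bp, 391 bp from 350 to under 500 bp and 560 bp at 500 bp or more, as means over libraries. In the 2 shortest classes they were centred on the midpoint, with a median offset of 6.5 to 23.25 bp. The medians of the signal between the starts averaged 0.212 ± 0.038 under 150 bp, 0.166 ± 0.046 from 150 to under 250 bp and 0.515 ± 0.044 at 500 bp or more (SD, n = 5).

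A nucleosome between the starts appeared at the same distances. It was counted as a peak of the joined profile strictly between the starts, at least 0.5 high. Under 150 bp, 99.8% ± 0.46 of pairs had none, and from 150 to under 250 bp 97.8% ± 4.47. Close starts leave little room for a peak strictly between them, so these shares follow largely from the definition. At the histone pair *HHT2*/*HHF2*, listed 87 bp apart, the count was 0 in every library, although the signal between the starts was 2.90 in YAC7. From 250 to 300 bp, 12.4% of pairs had at least 1, with a range of 10.3% to 17.2% over libraries (29 pairs). From 300 to 350 bp it was 75.7%, with a range of 70.2% to 83.0% (47 pairs). In that bin 61.7% of pairs were classed as shared, so some shared pairs held a nucleosome between the starts. The libraries did not overlap between these neighbouring bins.

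A further nucleosome appeared near 450 bp. From 400 to 450 bp 7.14% of pairs had 2 or more (3.57% to 17.9%, 28 pairs), and from 450 to 500 bp 35.8% (27.3% to 42.4%, 33 pairs). At 500 bp or more, 41.0% ± 5.46 had 1, 38.7% ± 2.88 had 2 and 10.9% ± 4.42 had 3. The number was the same in 5 of 5 libraries for 648 of the 818 pairs. Where a pair had a single nucleosome between the starts, it lay a median of 164 to 170 bp from the nearer start and 25.75 to 39 bp from the midpoint.

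**Figure D3:**
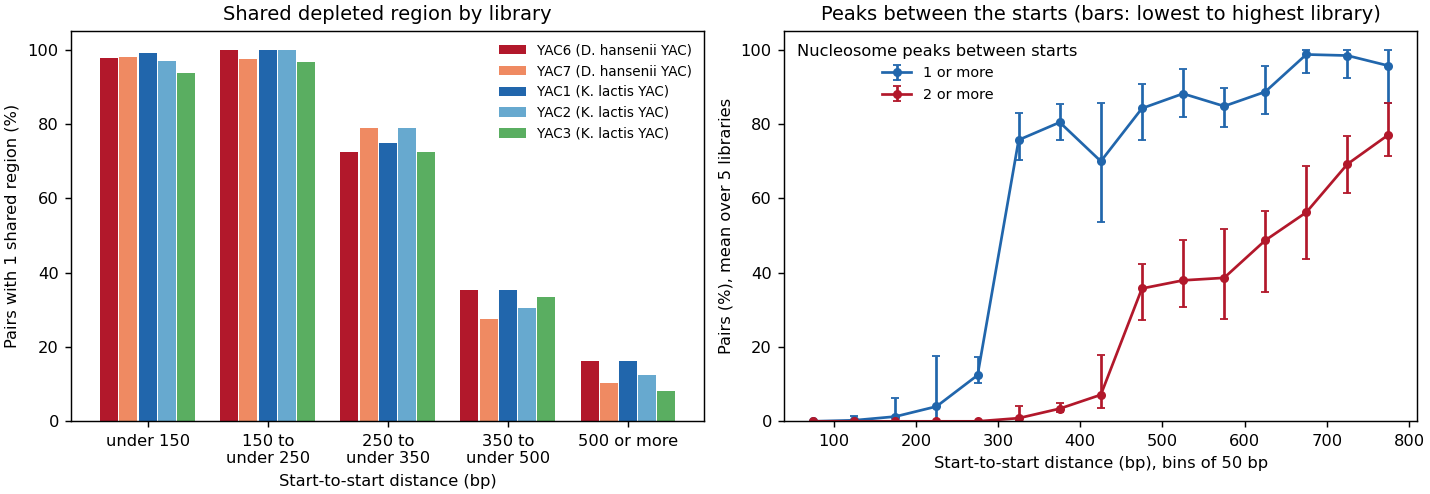
Left, the percentage of pairs with 1 shared depleted region by distance class, with 1 bar per library. Right, the percentage of pairs with 1 or more (blue) and 2 or more (red) nucleosome peaks between the starts in bins of 50 bp, as the mean over 5 libraries with bars from the lowest to the highest library. The blue line steps up between the bins 250 to 300 and 300 to 350 bp, the red line between 400 to 450 and 450 to 500 bp.

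The +1 position of each partner was the highest smoothed bin from 0 to 150 bp of its gene. The spacing of the partners' +1 positions therefore follows largely from the distance between the starts. Its median was 278 bp in pairs under 150 bp and 342 bp from 150 to under 250 bp. It was 483 bp from 250 to under 350 bp, 590 bp from 350 to under 500 bp and 775 bp at 500 bp or more. Seen from 1 gene, the first upstream peak of the mean profile lay at -198 ± 4.47 bp in pairs under 150 bp and at -260 bp in pairs from 150 to under 250 bp, near the partner's +1 nucleosome. In pairs from 250 to under 350 bp it lay at -170 bp and was lower, at 0.826 ± 0.025, against 1.47 ± 0.05 in pairs under 150 bp (SD, n = 5). Across the 136 pairs of 500 bp or more, Pearson's r between the partners' promoter ratios ran from -0.052 to 0.077 by library. This r is a description, and both ratios of a pair come from the same library.

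**Figure D4:**
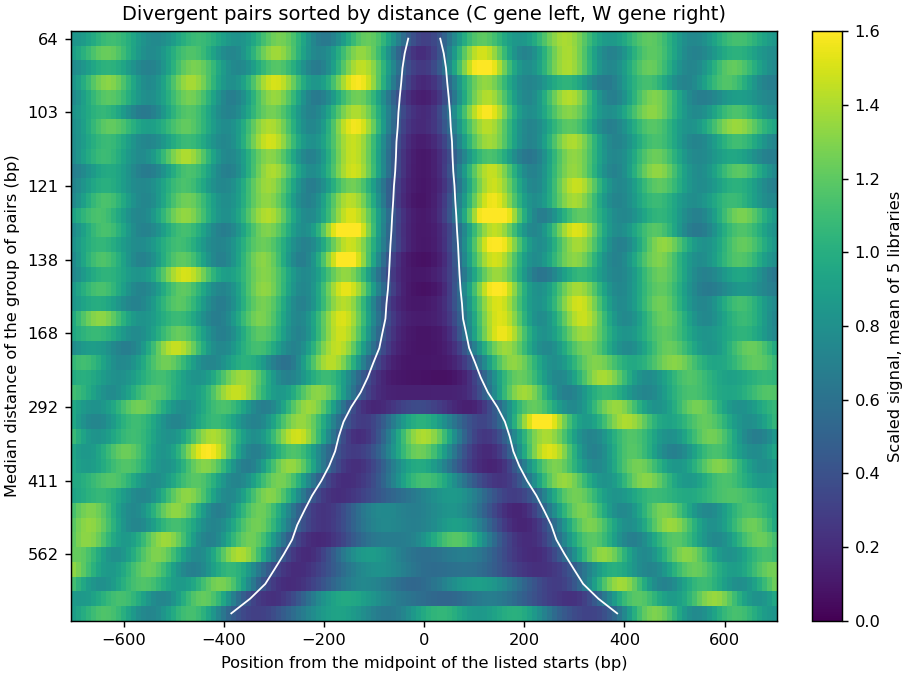
Scaled signal (colour, mean of 5 libraries) by position from the midpoint of the listed starts in bp (horizontal axis) for groups of pairs sorted from short to long distance (vertical axis, median distance in bp). White lines mark the starts. A single dark band splits into a pair of bands around an inner nucleosome below the group at 292 bp.

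Several well-known pairs showed how the classes look. *HIS3*, a histidine synthesis gene, and *MRM1*, which encodes a mitochondrial ribosomal RNA methyltransferase, start 135 bp apart. Their shared region measured 170 bp in YAC6, 300 bp in YAC7, 210 bp in YAC1, 210 bp in YAC2 and 190 bp in YAC3. The signal between the starts was 0.074, 0.055, 0.044, 0.068 and 0.065 of the gene-body level in that order, low in every library. *GLT1*, encoding glutamate synthase, and *UGA3*, an activator of genes for use of gamma-aminobutyrate, start 631 bp apart and were separate in all 5 libraries. The region at *UGA3* (364 ± 36.5 bp) was wider than that at *GLT1* (156 ± 37.1 bp; SD, n = 5), and each library had 1 nucleosome between them.

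Other known pairs changed with the library. *ADP1*, encoding a putative transporter, and the glycolytic gene *PGK1* start 457 bp apart. They shared a region of 660 bp in YAC6 and in YAC1, but were separate with 1 nucleosome between the starts in YAC7, YAC2 and YAC3. The signal between them was 0.057 in YAC6 and 0.698 in YAC7, against 0.162 in YAC1, 0.352 in YAC2 and 0.773 in YAC3. The libraries with the finest steps, YAC6 and YAC1, were the lowest. *CLN2*, a G1 cyclin gene, and *BBP1*, a spindle pole body gene, start 601 bp apart. They were separate in YAC6, YAC7 and YAC1 and shared in YAC2 and YAC3. Where shared, a peak stood 120 bp from the *CLN2* start in YAC2 and 110 bp in YAC3. The promoter ratio of *CLN2* was -0.53 in YAC2 and 0.82 in YAC3, against -3.03 and -2.54 at *BBP1*. *PDC6*, a pyruvate decarboxylase gene, and *CTT1*, the gene of a cytosolic catalase, had no recovered distance. Their promoter ratios were -2.34 ± 0.35 at *PDC6* and -0.35 ± 0.82 at *CTT1* (SD, n = 5).

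The histone pairs differed from each other and between libraries. The starts of *HTB1* and *HTA1* are listed 108 bp apart and those of *HHT2* and *HHF2* 87 bp apart. At *HTB1*/*HTA1* the signal between the starts was 0.106 in YAC6 and 0.721 in YAC7, against 0.312 in YAC1, 0.588 in YAC2 and 1.25 in YAC3, and the pair shared a region of 220 bp in YAC6, 130 bp in YAC1 and 60 bp in YAC2 but had none in YAC7 and YAC3. At *HHT2*/*HHF2* it was 0.538 in YAC6 and 2.90 in YAC7, against 1.56 in YAC1, 1.27 in YAC2 and 2.47 in YAC3, the highest mean of all pairs. The intergenic regions of histone pairs are known to be long, and whether these listed starts are the sites of transcription was not tested. The same limit holds for *CLN2*/*BBP1* and *ADP1*/*PGK1*.

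**Figure D5:**
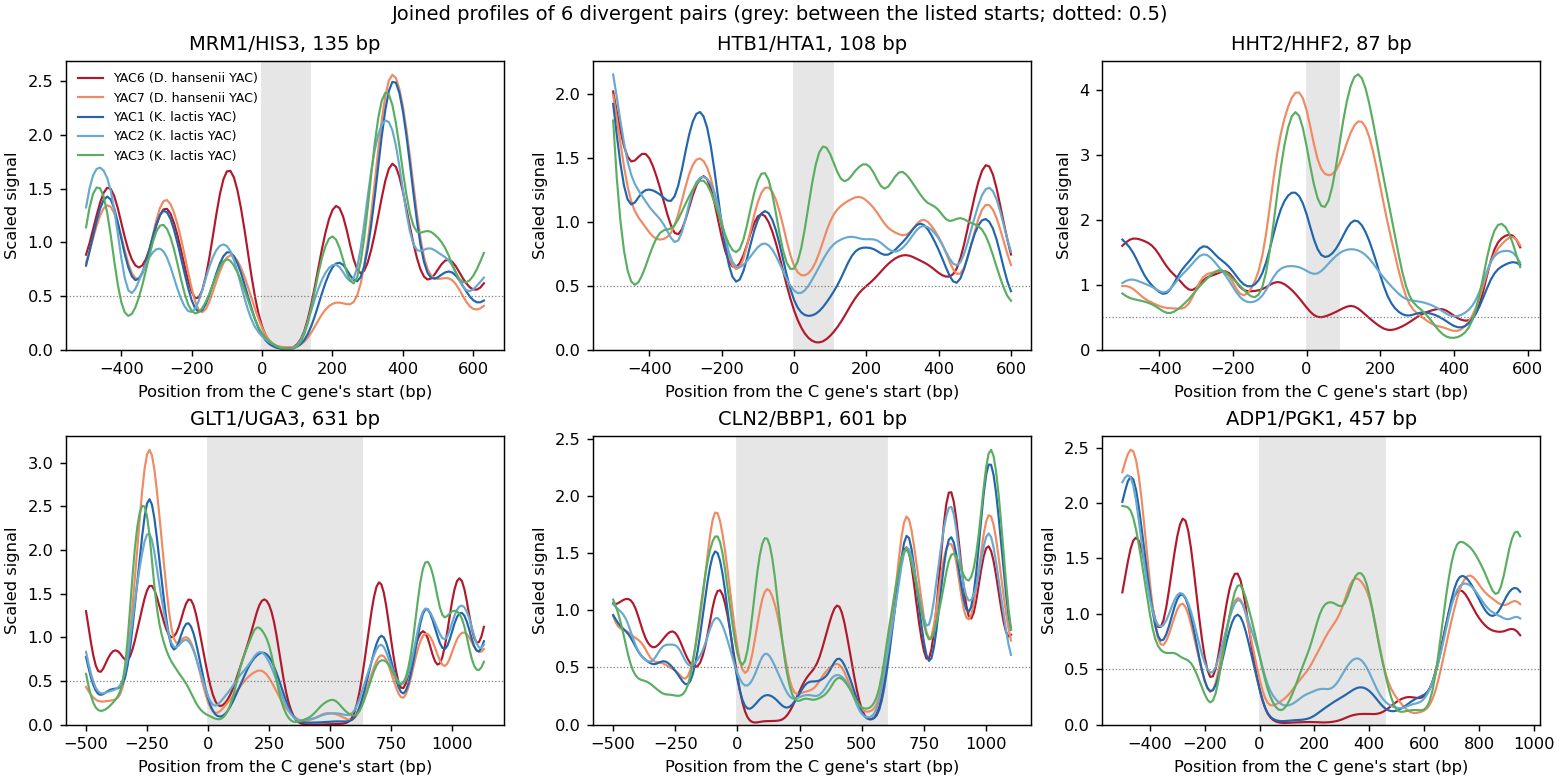
Joined, smoothed profiles of 6 pairs in 5 libraries: scaled signal (vertical axis) by position from the C gene's listed start in bp (horizontal axis), with grey between the starts and a dotted line at 0.5. *MRM1*/*HIS3* falls below 0.5 in every library, *GLT1*/*UGA3* has a nucleosome between 2 regions, and the other 4 pairs differ between libraries.

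Among pairs at least 100 bp apart and shared in all 5 libraries, the widest regions by the mean over libraries belonged to *IDI1*/*HOS3* (824 ± 136 bp), *PFK26*/*MOB1* (620 ± 125 bp) and *DIS3*/*TAT2* (584 ± 8.94 bp; SD, n = 5). *IDI1* encodes an enzyme of isoprenoid synthesis and *HOS3* a histone deacetylase, while *PFK26* encodes a kinase that makes a regulator of glycolysis and *MOB1* a component of the mitotic exit network. *DIS3* encodes the catalytic subunit of the exosome and *TAT2* a tryptophan permease, and their region measured 580 bp in 4 libraries and 600 bp in YAC3, across starts 551 bp apart. Among pairs separate in all 5 libraries, most nucleosomes by the mean over libraries lay between the starts of *RRN11*/*CAT2* (791 bp), *KEL3*/*FUM1* (742 bp) and *CAT8*/*GPI12* (671 bp). At *RRN11*, a gene for an RNA polymerase I factor, and *CAT2*, encoding carnitine acetyltransferase, all 5 libraries had 3 nucleosomes, the first 240 to 250 bp and the last 640 to 660 bp from the *RRN11* start. *FUM1* encodes fumarase, and at *KEL3*/*FUM1* all 5 libraries also had 3 nucleosomes. At *CAT8*, an activator of genes for growth on non-fermented carbon, and *GPI12*, a gene of membrane anchor synthesis, YAC6, YAC1 and YAC3 had 3 nucleosomes and YAC7 and YAC2 had 2. The positions differed: 10, 310 and 480 bp from the *CAT8* start in YAC3, against 180, 320 and 470 bp in YAC6 and 180, 330 and 470 bp in YAC1.

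The lowest signal between the starts was at *MYO4*/*FRT2* (0.038 ± 0.009), *FKH1*/*ASG1* (0.033 ± 0.008) and *POM34*/*PSR2* (0.035 ± 0.014), all shared in 5 of 5 libraries. *MYO4* encodes a myosin that carries messenger RNA, *FKH1* a forkhead transcription factor and *POM34* a nuclear pore protein. Beside *HHT2*/*HHF2*, which has the limit given above, the highest was at *IZH4*/*PKH2* (1.44 ± 0.39) and *GLO1*/*YML003W* (1.30 ± 0.25, SD, n = 5). *IZH4*/*PKH2* and *GLO1*/*YML003W* each had 3 nucleosomes between the starts in every library. The largest differences in promoter ratio between partners were at *FDH1*/*YOR389W*, *YDR541C*/*PAU10* and *YHR210C*/*FLO5*, none with a recovered distance. *PAU10* had a ratio of 2.94 ± 0.28 and *YDR541C* -1.10 ± 0.29. *PAU10* and *FLO5* belong to families of near-identical genes, so their signal is uncertain. The mean signal of *FDH1* was low, from 0.088 in YAC3 to 0.381 in YAC6, beside a deposited mean near 1. Its ratio is therefore uncertain too.

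Gene groups chosen by symbol are given beside all divergent pairs. Those with an accepted distance had a median of 155 bp, with 532 of 818 pairs shared in all libraries and 163 changing class. Cytosolic ribosomal protein genes, whose products form the ribosome, counted 50 divergent members of 107 in the eligible set. Their median promoter ratio was -2.86 in YAC6 and -0.93 in YAC7, against -2.17 in YAC1, -1.27 in YAC2 and -0.47 in YAC3, a wider range than that of all divergent genes. The 2 lowest values were again in YAC6 and YAC1, the libraries with the finest steps, and the part of depth was not tested. Of their 34 pairs with a distance (median 446.5 bp), 9 were shared and 4 separate in all libraries, and 21 changed class. Of all pairs from 350 to under 500 bp, 44.1% changed class. Mitochondrial ribosomal protein genes (26 of 52) had a median distance of 135 bp, and 21 of 25 pairs were shared in all libraries. Their median ratio was -2.08 ± 0.35, beside -2.07 ± 0.30 for all divergent genes (SD, n = 5).

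Proteasome genes (15 of 31) had a median ratio of -2.50 ± 0.29 and ribosome biogenesis genes (25 of 48) one of -2.42 ± 0.43. Of their pairs, 10 of 14 and 16 of 22 were shared in all libraries, beside the 532 of 818 of all pairs. The 4 histone genes, all in divergent pairs, had a median ratio of -0.14 ± 0.91, with the limit on their listed starts given above. The 2 divergent chaperone genes of 13 had one of -1.97 ± 0.74. These lists are descriptions, and no difference between them was tested.

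The strain groups were then compared. The *D. hansenii* strains had 73.7% ± 1.12 shared pairs (n = 2) and the *K. lactis* strains 73.0% ± 2.46 (n = 3), a difference of 0.632 percentage points (exact two-sided permutation test, p = 0.9; 0.1 is the smallest possible). The difference in width between divergent and tandem genes was -30 ± 14.1 bp in the *D. hansenii* strains and -28.3 ± 10.4 bp in the *K. lactis* strains (exact permutation p = 1). For the other measures the exact permutation p was 0.8 for the promoter ratio, 0.7 for the upstream signal and 1 for the +1 position. With 2 and 3 strains these tests could not reach 0.05, so they do not show that the groups are alike.

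No gene or pair passed the threshold between the strain groups after adjustment. With limma, 0 of 5252 host genes (0%) passed an adjusted p of 0.05 for the promoter ratio, and 0 of 5251 (0%) for the width. Likewise 0 of 816 pairs (0%) passed for the signal between the starts. At an unadjusted p under 0.05, limma gave 7 genes for the ratio, 1 of them divergent. For the width it gave 41, 14 of them divergent, and for the signal between the starts 0 pairs. Those are 0.0526% of divergent and 0.133% of all genes for the ratio, and 0.736% and 0.781% for the width. Uniform p-values would put a share of 0.05 under that limit, so these fits gave far fewer small p-values. The lack of calls thus does not show that the strain groups are alike, and the cause was not tested. The divergent gene for the ratio was *RHO3*, which encodes a small GTPase. Its ratios were -3.71 in YAC6 and -3.34 in YAC7, against -3.17 in YAC1, -2.46 in YAC2 and -2.00 in YAC3 (limma difference -0.98 ± 0.38 SE, adjusted p = 1).

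The inositol transporter gene *ITR2* had regions of 330 bp in YAC6 and 350 bp in YAC7, against 530, 530 and 560 bp in the *K. lactis* strains YAC1, YAC2 and YAC3. The limma difference was -200 ± 34.0 bp (SE, adjusted p = 1). *ITR2* and the genes and pairs named below were picked for the smallest limma p per direction among divergent ones. The promoter ratio of *ITR2* was -1.27 in YAC6 and -1.42 in YAC7, against -1.78, -2.77 and -2.03 in YAC1, YAC2 and YAC3 (limma adjusted p = 1). *RDS3*, a splicing gene, had regions of 40 and 40 bp in the *D. hansenii* strains, against 60, 60 and 70 bp in the *K. lactis* strains (limma adjusted p = 1). The opposite direction occurred too. *YLL056C* had regions of 40 and 70 bp in the *D. hansenii* strains YAC6 and YAC7, against 20, 0 and 0 bp in the *K. lactis* strains (limma adjusted p = 1). Between the starts of *NDI1*, a mitochondrial NADH dehydrogenase gene, and *YML119W*, log2 signal was -0.22 in YAC6 and -0.07 in YAC7, against -0.37, -0.56 and -0.53 in YAC1, YAC2 and YAC3 (limma adjusted p = 0.995). Between the starts of *LDS1* and *PSK1*, log2 signal was -3.47 in YAC6 and -3.55 in YAC7, against -3.29, -2.90 and -2.55 in YAC1, YAC2 and YAC3 (limma adjusted p = 0.995). Without YAC7 or without YAC6, 1 *D. hansenii* library is left. A limma fit then assumes that the lone *D. hansenii* library varies like the *K. lactis* libraries. Some genes passed for the width in each of these fits. Without YAC7, some pairs also passed for the signal between the starts, all lower in YAC6. These calls are not read as differences between the strain groups.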

How the data were processed

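Members, lists, windows and tests were chosen with earlier results of these data known. The deposited values are signal (coverage of nucleosomal DNA) per the file headers, with 151 bins per gene, each 10 bp wide, that run along the gene's own direction between -500 and +1000 bp. The deposited signal has a mean near 1 and takes whole multiples of 1 step per table (tolerance 0.02), so depth in reads is unknown. CASAVA 1.7.0 was used, per the submitters' processing notes. The sources used here do not name an aligner, a genome build, a read extension or an origin of the starts. A suffix letter that the tables hold beside the strand was returned to the names of 214 genes. Symbols and the genes lying between partners came from the RefSeq table of assembly R64 (1901 of 1902 genes matched).

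Profiles were smoothed (Gaussian, SD 20 bp) for regions and peaks. Genes under 10% of the host median signal were left out of gene tests. The promoter ratio added 0.1 times the gene mean to both windows, which makes deep depletion look shallower. Depleted regions of single genes were searched from -500 to +300 bp, so their widths near 800 bp are limits. Regions of pairs were taken from the joined profile, which runs to +1000 bp in each gene and has no such limit. Peaks needed a height of 0.5 and a prominence of 0.1. Distances needed a mean correlation of 0.9, at least 200 bp of overlap and libraries within 20 bp. Bins could be labelled by start or centre, which may shift distances by up to 10 bp.

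Libraries were compared by exact sign-flip and permutation tests, and genes and pairs with limma 3.58.1 (R 4.3.3, mean trend, Benjamini-Hochberg over all features, threshold 0.05). Scripts used Python 3.11.15, numpy 2.4.6, pandas 2.3.3 and scipy 1.17.1, and were tested on simulated data. No simulated pair had a distance from 250 to under 350 bp, where the step between the classes fell. A check on unrelated gene pairs failed at first, and its limit was changed after the cases were seen. Named pairs were known from textbooks or were the extremes of a measure. The pair *HSP82*/*YAR1* was not found by the rule, and *PDC6*/*CTT1* had no recovered distance. Insert tables were not used.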

Additional observations from a re-analysis of the deposited data

How the results depend on the processing

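No paired analysis was possible because replicate numbers only follow accession order. The sign-flip and permutation tests could not reach 0.05 under any setting, so a p that stayed above it says nothing about stability. The promoter ratio difference between divergent and tandem genes reversed to -0.032 in pairs under 250 bp, where only the class from 150 bp on was below tandem genes, and the upstream signal difference to -0.015 in pairs of 350 bp or more, both splits added after seeing the data. The shared percentage was 71.1% with a threshold of 0.4, 70.6% with regions of at least 80 bp and 75.2% for pairs with no annotated gene between. Leaving out 1 library gave 72.8% to 74.0%, and -0.672 to 1.77 percentage points between *D. hansenii* and *K. lactis* strains, with the sign reversed without YAC3 (-0.672) and without YAC6 (-0.163). Likewise the ratio difference was 0.06 to 0.09, the width difference -31.25 to -26.25 bp, the upstream difference 0.138 to 0.153 and the +1 difference -2.5 to 0 bp. It was also 0 bp with a smoothing SD of 10 bp. limma calls between strain groups were 0 to 19 genes for width and 0 to 20 pairs for signal between the starts, and 0 for the ratio. With a peak height of 0.7 in place of 0.5, the median number of nucleosomes between the starts at 500 bp or more was 1.2 in place of 1.5 as a mean over libraries. The causes were not tested. A distance limit of 0.99, added after seeing the data, gave 73.6% shared. A planned motif search was not run, since promoter sequences were not used here. Steps were coarser in YAC2, YAC3 and YAC7, and their part in the depth of depletion was not tested.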
